A study of Mus musculus with 29 samples.

Results

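The messenger RNA levels of 40 genes of proliferation and the mitotic cell cycle were measured in whole mouse liver by bulk RNA-seq of polyadenylated RNA. The genes were listed by name from those that act in S phase and mitosis, by a rule that uses no measured value but with earlier results of these data known, and all 40 were found among the 55421 genes of the count table. By role they comprise 7 cyclins, kinases and E2F factors of the passage from G1 to S phase, 9 genes that license replication origins or build the replicative helicase, and 5 genes of DNA and nucleotide synthesis. The others are 9 cyclins, kinases and the transcription factor FOXM1 of the passage from G2 to mitosis, 4 genes of the spindle checkpoint and the anaphase-promoting complex, 5 genes of spindle motors and microtubule proteins, and Mki67, whose protein is the Ki-67 antigen of cycling cells. For counts over wider groups, the 19 genes of the last kinds and Top2a, a topoisomerase that peaks in G2, form a set of 20 G2 and mitosis genes.

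Cells enter the cycle when growth signals raise cyclin D, whose kinase CDK4 phosphorylates the retinoblastoma protein RB and frees E2F factors to switch on the genes of DNA replication. A later wave driven by FOXM1 and MYBL2 brings on the genes of G2 and mitosis. In resting cells the DREAM complex, in which RB-family proteins are joined to E2F4, keeps both waves low, and p53 acts on it through the CDK inhibitor p21. Most hepatocytes of the adult liver are at rest and divide when tissue is lost. Liver also holds Kupffer cells, lymphocytes, cholangiocytes and other cells, each of which can divide.

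The study asked what activating p53 does in the liver of old mice. It used HDM201, a drug against MDM2, the ubiquitin ligase that marks p53 for degradation. Old mice were C57BL/6J, 20 months of age in females and 24 months in males by the labels, and received either HDM201 at 10 mg/kg by gavage every day or its vehicle, phosphate-buffered methylcellulose, for 14 days. Young mice were C57BL6/N, 5 months of age, and received vehicle. Old and young mice therefore differ in substrain as well as in age, and the effects of age and substrain cannot be told apart. No group carried a transgene or a deletion that the labels name. Read counts were analysed for 5 young vehicle, 4 old vehicle and 5 old HDM201 females, and for 4 young vehicle, 4 old vehicle and 5 old HDM201 males. The labels give replicate numbers without animal identifiers, so p-values measure the spread between these libraries. In whole tissue, fewer cells of a type and less RNA per cell cannot be told apart.

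Counts on genes totalled 16485900 to 23570458 per mouse, with a median of 19149235. Levels are given as CPM, counts scaled to a common library size over all 27 mice by the TMM method, and as CPM per kilobase of exons where genes are compared with each other. Values for a group are listed in the order of the replicate numbers, which run from 2 to 5 in old vehicle males and from 1 in the other groups. All 6 hepatocyte markers were abundant in all 27 mice, from Hnf4a, at 482 CPM or more, to Alb, at 59277 CPM or more. 3 male libraries stood apart in the cell cycle genes. Old HDM201 male 4 had the highest level of its group for 38 of the 40 genes and the highest of all 27 mice for 33. Counts of old vehicle male 1 and of young vehicle male 5 were not used here. Both were read from FPKM alone, which divides fragments by transcript length and sequencing depth, and are described with the males.

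The levels of the cell cycle genes per kilobase spanned 2 orders of magnitude. Averaged over the 27 mice, the levels were highest for Pcna, the sliding clamp of DNA polymerase, at 12.4 CPM per kilobase. Ccnd1, which encodes cyclin D1, was at 11.6 and its kinase Cdk4 at 10.2 CPM per kilobase. Mcm7, a subunit of the replicative helicase, followed at 3.80 and Rrm2, the small subunit of ribonucleotide reductase, at 3.69 CPM per kilobase. The mitotic genes lay at the other end. Top2a was at 0.154 CPM per kilobase, Mki67 at 0.174, Ube2c, the ubiquitin-conjugating enzyme of the anaphase-promoting complex, at 0.215, Ccnb1, the cyclin B1 gene, at 0.0544 and Bub1, a kinase of the spindle checkpoint, at 0.0337. Because of these levels, several of the genes rest on few reads. Top2a had 3 to 146 counts per mouse and Ube2c 2 to 56. Ccnb1 and Bub1 had at most 33 and 24 counts in any mouse and passed the filter on low counts in no comparison, and Cdc6, a loader of the helicase, passed it only in the comparison of the HDM201 effect between the sexes.

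**Figure D1:**
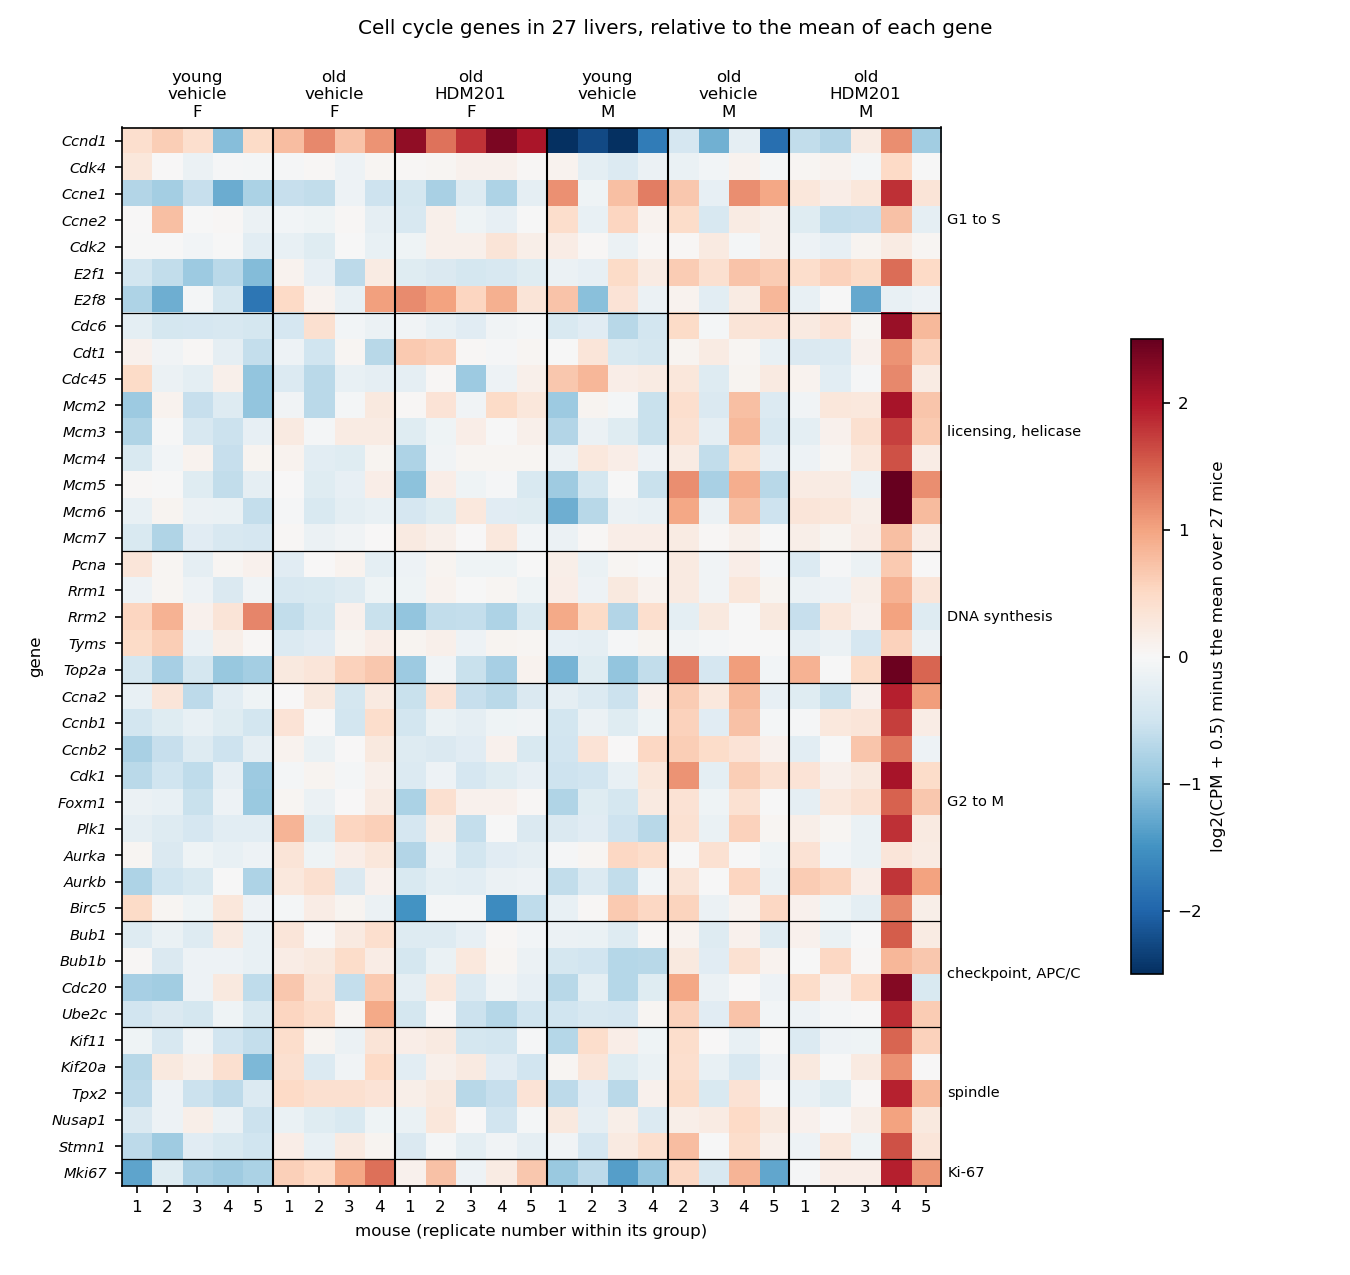
Levels of the 40 cell cycle genes in the 27 mice with counts. Rows are genes ordered by role and columns are mice ordered by group. Colour is log2(CPM + 0.5) minus the mean of the gene over all mice, with the scale limited to 2.5 on either side. Old HDM201 male 4 stands out as a column of high values, and it was the highest of all mice for 33 of the 40 genes.

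To show what the mitotic genes share outside their expression, promoter windows were read from RefSeq for GRCm38.p6. These cover 250 bases before and 50 bases after the start of a gene, and 31 of the 40 genes had such a window. Sites were searched as letters on both strands. They were the cell cycle homology region (CHR, read as TTTGAA and also as TTCGAA), which the MuvB core of DREAM binds, the CCAAT box of the factor NF-Y, and the E2F site (TTTGGCGC or TTTCCCGC). A CHR was found in 11 of 14 G2 and mitosis genes with a window, which is 78.6%, in 4 of 17 genes of G1, S phase and replication, which is 23.5%, and in 21.7% of 27025 genes with a window. A CHR together with a CCAAT box was found in the same shares of both groups, 78.6% and 23.5%, and in 8.61% of all genes with a window. The E2F site was found in 7 of 17 genes of G1, S phase and replication, or 41.2%. It was in none of the 14 G2 and mitosis genes, and in 1.8% of all genes with a window. The earlier genes with an E2F site were Cdk2, Cdc6, Cdt1, Mcm3, Mcm5, Mcm6 and Mcm7. Matches of letters are no proof of binding, and the absence of a match says only that these letters are not in the window.

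The stretches upstream of Top2a and Ube2c are shown because these genes were called in the comparisons with both age and HDM201 in females. Top2a lies on chromosome 11 at 98992943 to 99024189 on the minus strand, and Ube2c on chromosome 2 at 164769898 to 164778822 on the plus strand. Capitals mark CCAAT boxes and CHR elements on either strand. A CCAAT box on the other strand reads ATTGG and a CHR there reads TTCAAA, while TTCGAA is its own reverse complement. The stretch of Top2a, chr11:99024190-99024439 of GRCm38.p6 on the minus strand, is 250 bases long and holds 6 CCAAT boxes and 4 CHR elements. That of Ube2c, chr2:164769679-164769897 on the plus strand, is 219 bases long and holds 6 CCAAT boxes, a pair of which overlap on opposite strands, and its CHR lies 29 bases before the RefSeq start, outside the printed stretch.
Top2a: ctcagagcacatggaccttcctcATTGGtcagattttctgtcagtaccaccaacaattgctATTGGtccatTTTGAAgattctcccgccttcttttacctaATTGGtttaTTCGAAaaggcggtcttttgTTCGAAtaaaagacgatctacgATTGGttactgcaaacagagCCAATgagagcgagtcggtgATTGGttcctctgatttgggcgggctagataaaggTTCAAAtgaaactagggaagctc
Ube2c: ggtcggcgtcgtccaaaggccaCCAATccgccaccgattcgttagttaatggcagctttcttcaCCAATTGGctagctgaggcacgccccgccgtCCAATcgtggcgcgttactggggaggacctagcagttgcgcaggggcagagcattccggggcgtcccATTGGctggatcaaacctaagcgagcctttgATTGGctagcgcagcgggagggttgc
Of the other genes called in more than 1 comparison, Ccnd1 had no promoter window to search, Mcm7 had 3 CCAAT boxes, a CHR and an E2F site, and E2f1 had none of these letters.

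**Figure D2:**
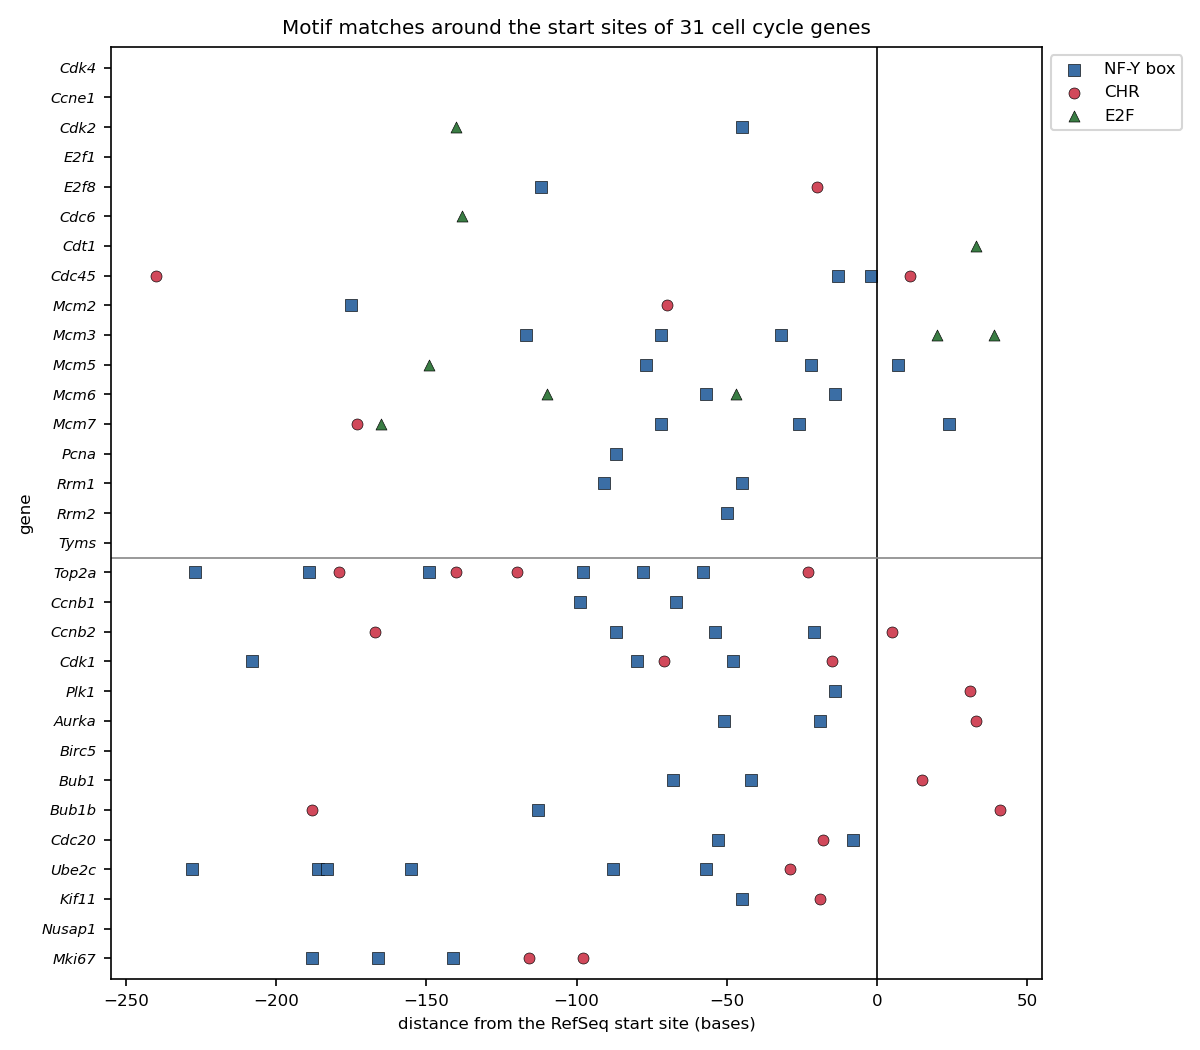
Positions of CHR, CCAAT box and E2F site matches in the promoter windows of 31 cell cycle genes. The x axis is the distance from the RefSeq start in bases, each row is a gene, squares labelled NF-Y box are CCAAT boxes, and for Mcm7 only 1 of its windows is drawn. CHR marks sit mostly in the G2 and mitosis genes, 11 of 14, and E2F marks only in the genes of G1, S phase and replication, 7 of 17.

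The comparison of old with young vehicle females asked how the cycle genes differ between the age groups. 14 of the 33 genes that passed the filter on low counts were higher in old females and 1 was lower (edgeR quasi-likelihood test, Benjamini-Hochberg FDR under 0.05). Among the 14233 genes in the test 16.8% were called higher and 15% lower, 31.8% together. The median log2 fold change was 0.41 over the cycle genes and 0.01 over all genes, and 22 of the 33 cycle genes lay above 0, against 51% of all genes. Of the G2 and mitosis genes 15 were tested, 13 lay above 0, 9 were called higher and the median was 0.83. Some of these, such as Ube2c and Tpx2, had few counts in young females and passed the filter through the old group. The counts and medians of the cycle genes therefore depend in part on the filter. At an unadjusted p under 0.05 there were 16 cycle genes higher and 1 lower, where 42.6% of all genes passed, 22.3% higher and 20.3% lower. In 10 cycle genes every old female was above every young female, where 12.3% of all genes did so, and in none was every old female below, where 13.6% did.

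Mki67 moved most. It was at 0.252, 1.03, 0.572, 0.517 and 0.588 CPM in young vehicle females and at 2.32, 2.14, 3.15 and 4.36 CPM in old vehicle females. Each old female was above each young female, and the log2 fold change was 2.33 with an SE of 0.33 (FDR = 0.000346). Tpx2, which nucleates spindle microtubules and activates Aurora A, was at 0.0630, 0.308, 0.104, 0.0575 and 0.196 CPM in young females and at 0.738, 0.668, 0.664 and 0.609 CPM in old females. The groups did not overlap, and Tpx2 rose by 2.13 on the log2 scale (SE 0.42, FDR = 0.00237). Its young values rest on 1 to 6 counts per mouse.

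Top2a was at 0.630, 0.359, 0.624, 0.287 and 0.343 CPM in young females and at 1.32, 1.38, 1.77 and 1.92 CPM in old females. Again no old female reached down to the young range, and Top2a was 1.85 higher on the log2 scale (SE 0.29, FDR = 0.000656). Ube2c was at 0.189, 0.256, 0.208, 0.402 and 0.245 CPM in young females against 0.896, 0.802, 0.498 and 1.36 CPM in old females. It rose by 1.78 on the log2 scale without overlap (SE 0.37, FDR = 0.00328), from 3 to 7 counts per young mouse to 9 to 29 per old mouse.

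Other genes of the mitotic machinery rose by about 1 log2 unit or less. Cdk1, the kinase that drives entry into mitosis, was at 0.441, 0.564, 0.468, 0.805 and 0.294 CPM in young females and at 0.949, 1.07, 0.940 and 1.12 CPM in old females, a log2 fold change of 1.02 (SE 0.29, FDR = 0.019). Its partner Ccnb2, the cyclin B2 gene, went from 0.189, 0.308, 0.468, 0.345 and 0.539 CPM to 0.790, 0.579, 0.719 and 0.937 CPM, also a log2 fold change of 1.02 (SE 0.33, FDR = 0.0315). Neither gene had overlapping groups. Bub1b, which encodes the checkpoint kinase BubR1, was at 0.693, 0.410, 0.572, 0.575 and 0.539 CPM in young and at 0.843, 0.891, 1.11 and 0.844 CPM in old females (log2 fold change 0.74, SE 0.26, FDR = 0.0423). Kif11, the motor that pushes spindle poles apart, was at 0.819, 0.564, 0.832, 0.517 and 0.441 CPM in young and at 1.42, 0.980, 0.774 and 1.27 CPM in old females (log2 fold change 0.83, SE 0.29, FDR = 0.044). The Bub1b groups were apart, whereas the lowest old female fell within the young range for Kif11. Stmn1, the microtubule destabiliser stathmin, was at 2.58, 2.10, 3.48, 3.22 and 2.94 CPM in young and at 4.90, 3.79, 5.14 and 4.59 CPM in old females, without overlap (log2 fold change 0.70, SE 0.17, FDR = 0.00809).

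Among the earlier genes the largest rise was that of E2f8, an E2F factor that represses E2F targets late in S phase. It was at 2.65, 1.79, 4.68, 3.45 and 1.03 CPM in young females and at 7.11, 5.26, 4.20 and 10.5 CPM in old females (log2 fold change 1.35, SE 0.36, FDR = 0.0131). E2f1, an activator of S phase genes, was at 2.14, 1.90, 1.46, 1.78 and 1.23 CPM in young and at 3.37, 2.67, 1.83 and 3.70 CPM in old females (log2 fold change 0.80, SE 0.24, FDR = 0.0224). For both genes 1 old female lay within the young range. Ccnd1 was at 46.5, 53.8, 46.8, 16.5 and 48.8 CPM in young females and at 60.1, 80.7, 57.8 and 76.4 CPM in old females. All old females were above all young females, with a log2 fold change of 0.72 (SE 0.25, FDR = 0.046).

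The helicase and nucleotide genes moved less and not in 1 direction. Mcm7 was at 12.5, 9.53, 13.4, 12.3 and 12.2 CPM in young females and at 16.8, 14.9, 15.5 and 16.6 CPM in old females, a rise of 0.44 on the log2 scale without overlap (SE 0.10, FDR = 0.00713). Mcm3, another helicase subunit, was at 2.46, 4.41, 3.28, 2.93 and 3.82 CPM in young and at 5.27, 4.28, 5.20 and 5.25 CPM in old females (log2 fold change 0.58, SE 0.17, FDR = 0.0225). The other tested helicase and licensing genes were not called, and Mcm2, for example, was at 1.51, 3.54, 2.03, 2.53 and 1.42 CPM in young and at 3.06, 1.87, 3.15 and 3.98 CPM in old females (log2 fold change 0.47, SE 0.29, FDR = 0.233). Rrm2 was the 1 gene that fell, from 13.7, 17.4, 10.1, 11.8 and 22.3 CPM to 5.90, 6.72, 10.1 and 6.19 CPM (log2 fold change -1.04, SE 0.23, FDR = 0.00493). Pcna was not called, at 36.4, 30.5, 25.3, 30.7 and 31.8 CPM in young and 24.2, 29.8, 31.5 and 24.7 CPM in old females (log2 fold change -0.14, SE 0.11, FDR = 0.362).

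Markers of several immune cell types were also higher in old females. All 6 markers of macrophages and Kupffer cells were called higher, and their summed level was 199 to 296 CPM in young and 303 to 590 CPM in old vehicle females. Of the B and plasma cell markers 5 of 6 were called higher, with sums of 3.91 to 5.52 and 17.7 to 33.7 CPM, and 4 of 5 tested monocyte and dendritic cell markers, with sums of 2.72 to 3.97 and 9.02 to 14.6 CPM. For T and NK cells 2 of 5 tested markers were called higher, with sums of 2.08 to 3.66 and 4.28 to 4.64 CPM, and for neutrophils both tested markers, while 4 of the 6 were too low to test. Among the other lists, 2 of 5 tested cholangiocyte, 3 of 6 stellate cell and 1 of 6 endothelial markers were called higher, and 1 of 6 endothelial, 2 of 6 hepatocyte and 1 of 3 tested erythroid markers lower. No marker of macrophages or B cells was at 0 in any mouse, whereas the neutrophil marker Ly6g was at 0 in all 5 young and in 2 of 4 old vehicle females. The part of these cells in the rise of the cycle genes was not tested. Without old vehicle female 4, whose summed G2 and mitosis level was the highest of the females, the count of genes called higher was 5 in place of 14 (Mcm7, Top2a, Tpx2, Stmn1 and Mki67), Ube2c then not passing the filter. It was 8 without old vehicle female 1 and 9 without young vehicle female 5. Over the 9 fits that left out a mouse, the call of Bub1b was lost in 8 (edgeR FDR 0.0408 to 0.114), those of Ccnb2, Kif11 and Ccnd1 in 6 each, those of E2f1 and Mcm3 in 3 each, that of Cdk1 in 2 and that of E2f8 in 1. Bub1b, Ccnb2, Kif11 and Ccnd1 were not called by DESeq2 either (FDR = 0.134, 0.0759, 0.0839 and 0.108). Ube2c passed the filter in only 4 of the 9 fits and was called in each of these (edgeR FDR 0.002 to 0.00942).

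The comparison of old HDM201 with old vehicle females asked how the cycle genes differed with the drug. It uses the same 4 old vehicle females as the comparison with young mice, so the directions of both are not independent, and the values are given here side by side. Of 36 cycle genes tested, Ccnd1 was called higher and Top2a and Ube2c were called lower (edgeR, Benjamini-Hochberg FDR under 0.05). Of 14445 genes in the test 5.25% were called, with 2.35% higher and 2.9% lower. The cycle genes had a median log2 fold change of -0.20, against 0.00 over all genes, and 13 of 36 lay above 0, against 50.2% of all genes. Of the 17 G2 and mitosis genes tested 16 lay below 0, with a median of -0.63. Genes with few counts, such as Ube2c, passed the filter through the old vehicle group, where they are higher. The number below 0 and the median therefore depend in part on the filter. At an unadjusted p under 0.05 there were 11 cycle genes, 4 higher and 7 lower, and all 7 lower genes belong to G2 and mitosis, where 22.5% of all genes passed, 11% higher and 11.5% lower.

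Ccnd1 was at 163, 90.5, 123, 181 and 144 CPM in HDM201-treated old females, against 60.1, 80.7, 57.8 and 76.4 CPM in old vehicle females. Every treated female was above every vehicle female, as for 5.91% of all genes, and the log2 fold change was 1.01 (SE 0.18, FDR = 0.0125). No other cycle gene was without overlap in this direction. With young vehicle females at 16.5 to 53.8 CPM, the 3 female groups stood in the order young vehicle, old vehicle and old HDM201 with no overlap between neighbours. Ccnd1, on chromosome 7 at 144929931 to 144939925 on the minus strand, overlaps LTO1 on the other strand, and the strand setting of the counting was not given in the sources used here.

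Ube2c was at 0.209, 0.492, 0.166, 0.0890 and 0.188 CPM in treated females, below all values of old vehicle females, 0.896, 0.802, 0.498 and 1.36 CPM. The gap between the groups was narrow, since the highest treated and the lowest vehicle mouse, both with 9 counts, were at 0.492 and 0.498 CPM. The log2 fold change was -2.01 (SE 0.43, FDR = 0.0255). Top2a was at 0.313, 0.930, 0.540, 0.356 and 1.13 CPM in treated females against 1.32, 1.38, 1.77 and 1.92 CPM in vehicle females, also without overlap (log2 fold change -1.31, SE 0.34, FDR = 0.0491). Treated values of both genes overlapped those of the young vehicle females, which were 0.287 to 0.630 CPM for Top2a and 0.189 to 0.402 CPM for Ube2c.

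2 further genes were lower in every treated female without passing the threshold, where 4.24% of all genes had no overlap in this direction. Cdk1 was at 0.678, 0.875, 0.624, 0.712 and 0.799 CPM in treated and at 0.949, 1.07, 0.940 and 1.12 CPM in vehicle females (log2 fold change -0.49, SE 0.21, FDR = 0.188). Aurka, the centrosomal kinase Aurora A, was at 1.46, 2.46, 1.87, 2.18 and 2.30 CPM in treated and at 3.58, 2.54, 3.15 and 3.47 CPM in vehicle females (log2 fold change -0.65, SE 0.19, FDR = 0.0658). Of 36 cycle genes DESeq2 called Aurka lower as well as Top2a and Ube2c, and Ccnd1 higher. It called 1330 genes in all.

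Mki67 was at 1.51, 2.62, 1.21, 1.65 and 2.49 CPM in treated females against 2.32, 2.14, 3.15 and 4.36 CPM in vehicle females. The ranges overlapped, and Mki67 did not pass the threshold (log2 fold change -0.68, SE 0.28, FDR = 0.169). Unlike Top2a and Ube2c, it was above the young vehicle range of 0.252 to 1.03 CPM in all 5 treated females. Tpx2 was at 0.470, 0.547, 0.0416, 0.0890 and 0.611 CPM in treated females, so that 3 mice lay just below or within the vehicle range and 2 lay far below it (log2 fold change -0.99, SE 0.52, FDR = 0.288). Ccnb2 had a log2 fold change of -0.53 (FDR = 0.292), Bub1b of -0.56 (FDR = 0.249), Kif11 of -0.44 (FDR = 0.425) and Stmn1 of -0.31 (FDR = 0.208), none of which passed. Plk1, the polo-like kinase, was at 0.209, 0.547, 0.125, 0.445 and 0.235 CPM in treated and at 1.21, 0.267, 0.885 and 0.937 CPM in vehicle females (log2 fold change -1.41, SE 0.47, FDR = 0.104).

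The genes of G1, S phase and replication apart from Ccnd1 were not called. E2f8 was at 11.6, 10.3, 7.28, 9.48 and 6.25 CPM in treated females and at 7.11, 5.26, 4.20 and 10.5 CPM in vehicle females, with overlapping groups (log2 fold change 0.38, SE 0.25, FDR = 0.41). E2f1 was at 2.45, 2.35, 2.20, 2.27 and 2.44 CPM in treated females (log2 fold change -0.33, SE 0.20, FDR = 0.358). Of the 8 licensing and helicase genes tested 5 lay above 0, with a median log2 fold change of 0.08. Mcm7 was at 19.5, 17.99, 16.7, 19.8 and 15.8 CPM (log2 fold change 0.15, FDR = 0.324), Mcm2 at 3.34, 4.27, 3.08, 4.76 and 4.09 CPM (0.36, FDR = 0.356) and Mcm3 at 3.55, 4.10, 5.07, 4.41 and 4.89 CPM (-0.20, FDR = 0.428) in treated females. Rrm2 was at 4.44, 5.96, 6.03, 5.25 and 7.09 CPM (log2 fold change -0.34, FDR = 0.282) and Pcna at 27.1, 31.004, 27.5, 27.3 and 29.2 CPM (0.02, FDR = 0.906). The SE of the log2 fold change was 0.09 for both Pcna and Mcm7, 0.14 for Mcm3 and 0.22 for Mcm2.

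The calls of Top2a and Ube2c rested on few mice. Top2a passed the threshold in 2 of the 9 fits that left out a mouse, those without old HDM201 female 2 or 5, and its FDR ranged from 0.0279 to 0.131. Ube2c lost its call when vehicle female 2 or 4, or treated female 3 or 4, was left out, with an FDR of 0.0154 to 0.0819. Ccnd1 was called in all 9 such fits (FDR 0.00746 to 0.0359), but not by edgeR in a fit of all 6 groups (FDR = 0.164) or by limma on FPKM (FDR = 0.0661). The G2 and mitosis genes below 0 numbered 15 or 16 of 17 in those fits, or 14 of 15 without old HDM201 female 2.

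All 6 macrophage and Kupffer cell markers were called lower with HDM201 in females, and their sum was 303 to 590 CPM in old vehicle and 182 to 298 CPM in treated females, without overlap. Of the B and plasma cell markers 1 of 6 was called lower (sums of 17.7 to 33.7 and 10.1 to 20.2 CPM). For monocytes and dendritic cells 0 of 5 tested markers were called by edgeR, but 5 were lower at an unadjusted p under 0.05 (9.02 to 14.6 and 5.88 to 8.81 CPM). Of the T and NK cell markers 0 of 5 tested were called and 1 was lower at an unadjusted p under 0.05 (4.28 to 4.64 and 2.41 to 5.06 CPM). Cholangiocyte markers went the other way, with 2 of 5 tested called higher and sums of 49.7 to 71.4 and 84.3 to 151 CPM. The summed level of the 20 G2 and mitosis genes was 21.7 to 29.3 CPM in old vehicle and 12.9 to 21.9 CPM in treated females. In the other lists Hnf4a of 6 hepatocyte markers and Cdh5 of 6 endothelial markers were called lower. No stellate cell, erythroid or neutrophil marker was called by edgeR, with 0 of 6, 1 of 3 and 2 of 2 tested at an unadjusted p under 0.05. The part of these cell types in the levels of the cycle genes was not tested.

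**Figure D3:**
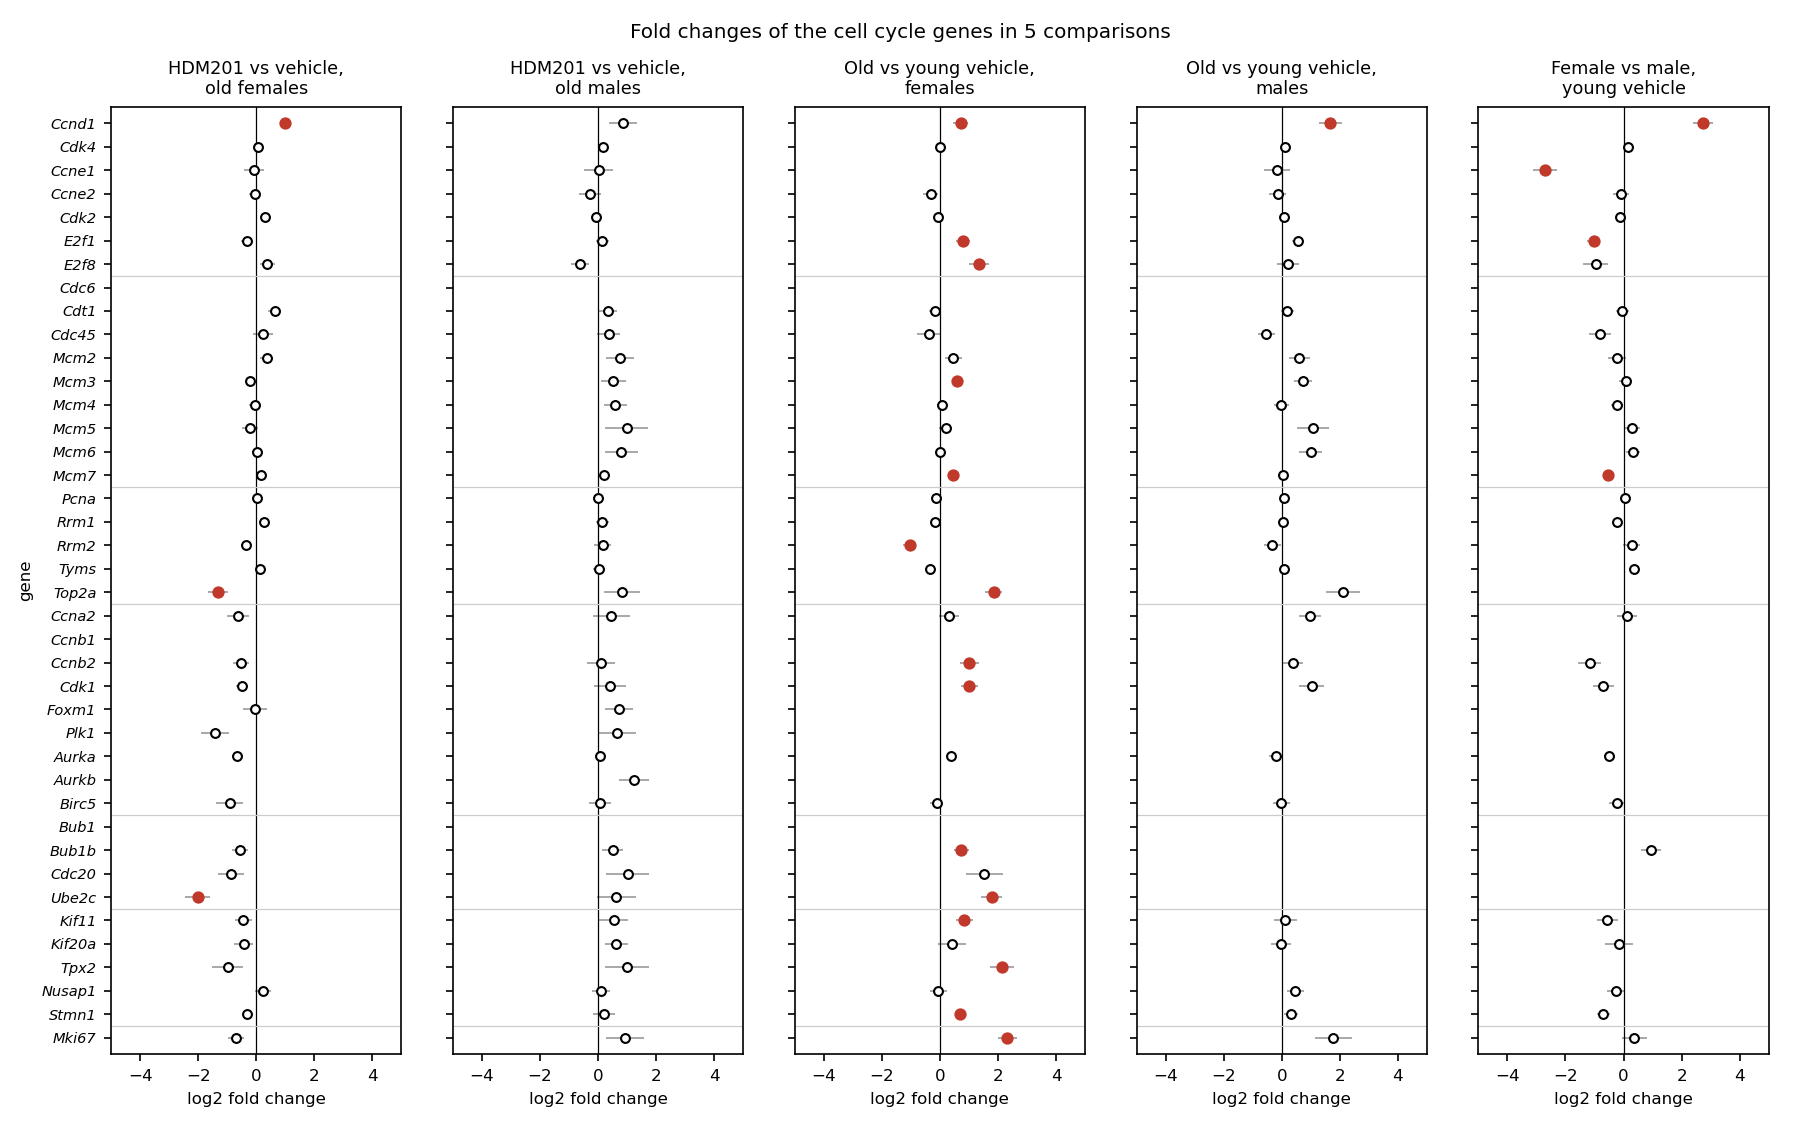
Log2 fold changes of the cell cycle genes in 5 comparisons of groups, with the SE as bars. Filled red points were called at an FDR under 0.05, and genes without a point did not pass the filter on low counts. In old females with HDM201 16 of 17 tested G2 and mitosis genes lie below 0 and Ccnd1 lies above 0. Genes with few counts, such as Ube2c, passed the filter there through the old vehicle group.

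In males the comparison of old HDM201 with old vehicle gave no call among the 37 cycle genes tested by edgeR. DESeq2 gave none among 39 either, and it called 151 genes in all. By edgeR there was 1 at an unadjusted p under 0.05, Aurkb, the kinase of the chromosomal passenger complex (log2 fold change 1.25, SE 0.51, FDR = 0.377). Of 14109 genes in the test 1 was called, or 0.00709%, and 12.1% had an unadjusted p under 0.05, 5.78% higher and 6.34% lower. No cycle gene was without overlap, against 1.52% of all genes higher and 2.51% lower. The fold changes lay above 0 in 34 of the 37 cycle genes, with a median of 0.41, against 52.8% and a median of 0.01 over all genes. All 18 G2 and mitosis genes tested lay above 0, with a median of 0.58. This direction rested on old HDM201 male 4. Without it 34 cycle genes were tested, 16 lay above 0 and the median was -0.06, and of the G2 and mitosis genes 7 of 15 lay above 0.

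In the treated males Mki67 was at 1.34, 1.61, 1.62, 6.67 and 3.52 CPM, against 2.19, 0.927, 2.87 and 0.265 CPM in old vehicle males (log2 fold change 0.93, SE 0.64, FDR = 0.572). Top2a was at 2.28, 1.02, 1.62, 7.79 and 3.69 CPM in treated and at 3.18, 0.638, 2.64 and 0.955 CPM in vehicle males (log2 fold change 0.83, SE 0.62, FDR = 0.602). Ube2c was at 0.390, 0.428, 0.461, 2.99 and 0.990 CPM in treated and at 0.938, 0.290, 1.09 and 0.425 CPM in vehicle males (log2 fold change 0.63, SE 0.67, FDR = 0.725). For all of these the groups overlapped, and male 4 was above every other male with counts. Cdk1 was at 1.39, 1.12, 1.27, 5.76 and 1.54 CPM in treated and at 2.76, 0.753, 1.78 and 1.43 CPM in vehicle males (log2 fold change 0.41, FDR = 0.795). Ccnb1 was at 0.167, 0.321, 0.346, 1.76 and 0.275 CPM in treated males and at 0.521, 0.0580, 0.631 and 0.159 CPM in vehicle males, and was too low to test.

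The replication genes showed the same single mouse. Mcm2 was at 3.06, 4.12, 4.04, 15.3 and 5.61 CPM in treated and at 4.53, 2.43, 5.91 and 2.49 CPM in vehicle males (log2 fold change 0.75, SE 0.48, FDR = 0.545). Pcna was at 23.2, 28.8, 26.7, 47.0 and 29.9 CPM in treated and at 34.6, 27.8, 33.3 and 29.0 CPM in vehicle males (log2 fold change 0.01, SE 0.18, FDR = 0.993). Ccnd1 was at 22.5, 20.7, 40.03, 78.4 and 18.8 CPM in treated and at 25.7, 14.95, 29.9 and 9.13 CPM in vehicle males. The direction was that of the females, but the groups overlapped and the fold change did not pass (log2 fold change 0.86, SE 0.47, FDR = 0.476). E2f8 did not follow male 4, which was at 4.21 CPM among 4.23, 4.82, 1.73 and 4.46 CPM in the other treated males.

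The summed level of the 20 G2 and mitosis genes was 80.8 CPM in old HDM201 male 4, and 22.8, 21.8, 22.4 and 33.3 CPM in treated males 1, 2, 3 and 5. Male 4 also had the highest marker sums of the treated males for cholangiocytes, 202 CPM against 66.7 to 101 CPM, for neutrophils, 25.2 CPM against 1.78 to 7.98 CPM, and for stellate cells, 145 CPM against 85.7 to 130 CPM. Its endothelial sum was the lowest, 96.5 CPM against 131 to 183 CPM. Its sums of macrophage and Kupffer cell markers, 173 CPM, of B and plasma cell markers, 27.2 CPM, and of T and NK cell markers, 7.36 CPM, lay within those of the other treated males, which were 172 to 451, 26.8 to 69.3 and 5.62 to 20.2 CPM. The part of these cells in the mouse's cycle gene levels was not tested. In the comparison of all old males no marker of any list was called with HDM201 by edgeR, with 2 T and NK cell, 2 stellate cell, 1 B and plasma cell, 1 cholangiocyte and 1 hepatocyte marker at an unadjusted p under 0.05.

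The FPKM values added an old vehicle male that was higher still. Old vehicle male 1 had the highest FPKM of its group for 39 of the 40 genes and of all 29 mice for 36. The exception in its group was Cdt1, a licensing factor, which had no FPKM value in any mouse and was read as 0. Its summed FPKM of the G2 and mitosis genes was 195, against 11.2 to 22.9 in the other old vehicle males and 11.8 to 55.2 in the treated males. Ube2c was at 21.3 FPKM in this mouse against 0.351 to 1.18 in the other old vehicle males, Top2a at 16.6 against 0.123 to 1.25, and Mki67 at 7.88 against 0.0209 to 0.213. Its markers also stood apart from the other old vehicle males. The summed FPKM was 276 for B and plasma cells against 9.34 to 18.6, 422 for macrophages and Kupffer cells against 56.8 to 182, 226 for cholangiocytes against 32.3 to 49.5 and 41226 for hepatocytes against 52139 to 75623. With this mouse the direction of the HDM201 comparison turned. By limma on log2(FPKM + 0.1) over all 10 old males, 7 of 39 cycle genes lay above 0, with a median of -0.27. Of all genes 53.9% did, with a median of 0.02. Over the 9 males that also had counts 35 of 39 lay above 0, with a median of 0.30. Here 69.3% of all genes did, with a median of 0.12. No cycle gene was called by limma in either fit, with 0 and 1 at an unadjusted p under 0.05. Among all genes 1 of 18299 and 2 of 17973 were called in these fits.

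**Figure D4:**
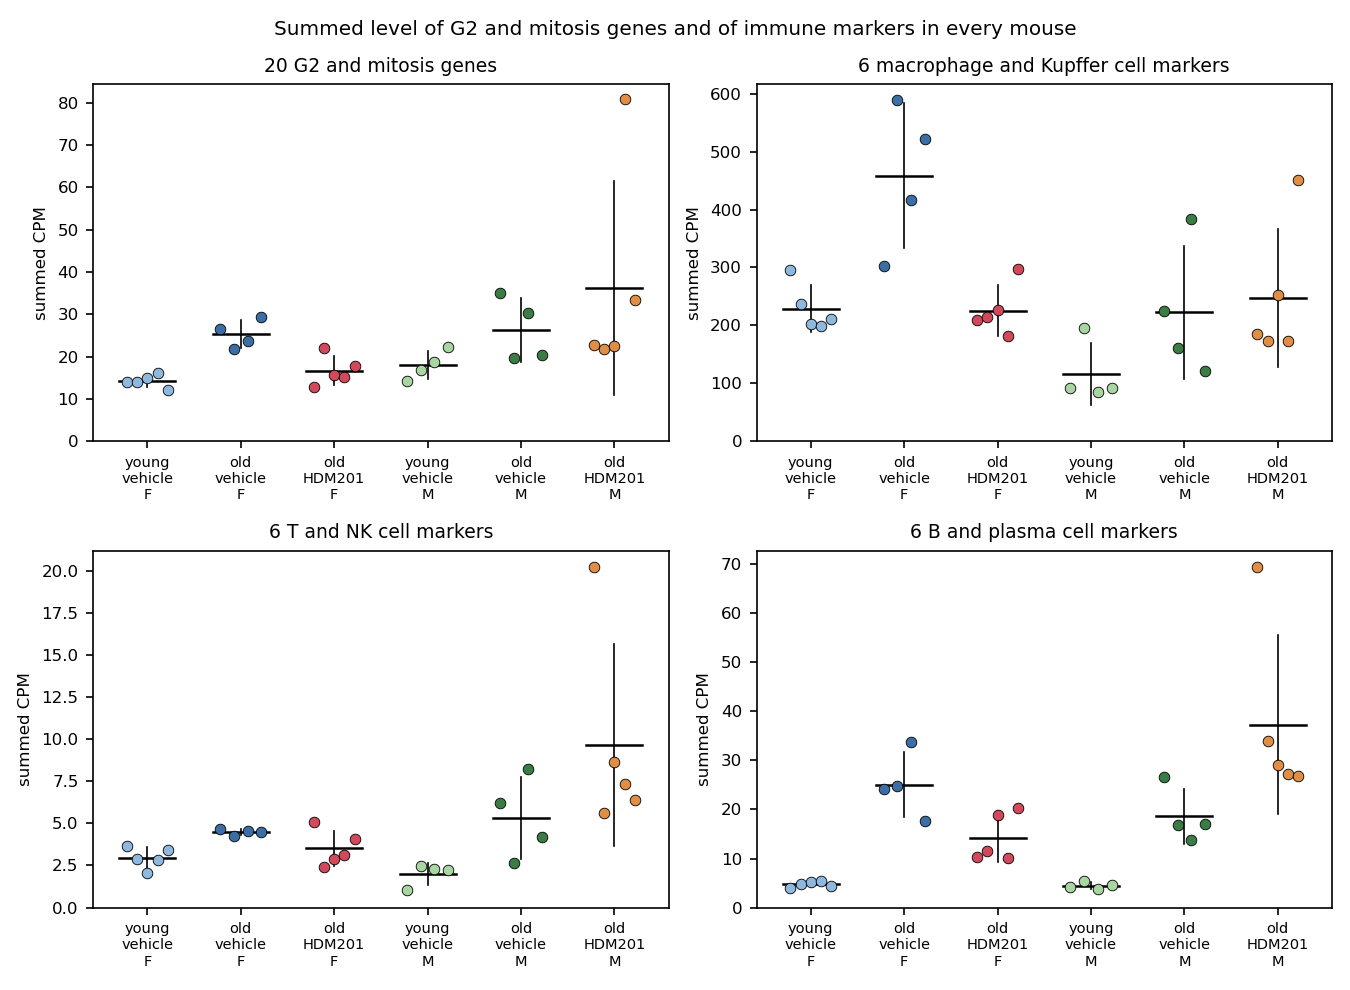
Summed CPM of the 20 G2 and mitosis genes and of the 6 markers each of macrophages and Kupffer cells, T and NK cells, and B and plasma cells in the 27 mice with counts. Points are mice, horizontal bars are means, vertical bars are SDs and the axes are linear. Old HDM201 male 4 is the highest mouse for the G2 and mitosis genes, at 80.8 CPM, and is not the highest for the other sums.

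In vehicle males, old against young, 1 of 30 cycle genes tested was called. Of 13755 genes in the test 3.69% were called, with 2.76% higher and 0.931% lower. The called gene was Ccnd1, at 4.47, 6.86, 3.82 and 10.0 CPM in young males and at 25.7, 14.95, 29.9 and 9.13 CPM in old males. The lowest old male fell within the young range, and the log2 fold change was 1.67 (SE 0.40, FDR = 0.0497). The call was lost in 7 of the 8 fits that left out a mouse, all but that without old vehicle male 5, with an FDR of 0.0218 to 0.138. 8 genes were higher at an unadjusted p under 0.05 and none was lower, where 21.9% of all genes passed, 12.9% higher and 9% lower. No cycle gene was without overlap, against 7.18% of all genes higher and 6.51% lower, and 22 of 30 lay above 0 with a median of 0.16, against 47.7% and a median of -0.01 over all genes.

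Top2a was at 0.181, 0.743, 0.273 and 0.498 CPM in young males and at 3.18, 0.638, 2.64 and 0.955 CPM in old males (log2 fold change 2.12, SE 0.59, FDR = 0.0721). Mki67 was at 0.483, 0.686, 0.218 and 0.453 CPM in young and at 2.19, 0.927, 2.87 and 0.265 CPM in old males (log2 fold change 1.77, SE 0.64, FDR = 0.139). Old vehicle males 2 and 4 carried the high values of both genes, and males 3 and 5 were at or near the young range. Cdk1 was at 0.544, 0.571, 0.818 and 1.31 CPM in young and at 2.76, 0.753, 1.78 and 1.43 CPM in old males (log2 fold change 1.04, SE 0.43, FDR = 0.192). Of 39 cycle genes DESeq2 called 3, Ccnd1, Cdc6 and Top2a, and it called 1318 genes in all. Of the spindle checkpoint genes none passed the filter, and Ube2c was at 0.181, 0.229, 0.218 and 0.498 CPM in young males.

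Markers of other cells were higher in old males too, with 4 of 5 tested B and plasma cell markers called (sums of 3.87 to 5.43 CPM in young and 13.8 to 26.6 CPM in old males) and 1 of 6 macrophage and Kupffer cell markers (84.3 to 196 and 122 to 383 CPM). Both tested monocyte and dendritic cell markers, 1 of 5 cholangiocyte and 1 of 6 stellate cell markers were also called higher. No T and NK cell, neutrophil, endothelial, hepatocyte or erythroid marker was called, with 2 of 2, 1 of 1, 2 of 6, 3 of 6 and 0 of 3 tested at an unadjusted p under 0.05. Their part in the cycle gene levels was not tested. Young vehicle male 5, which was read from FPKM alone, had the highest FPKM of its group for 28 of the 40 genes. Its summed FPKM of G2 and mitosis genes was 25.0, against 7.71 to 13.2 in the other young males, and its summed FPKM of neutrophil markers was 524 against 0.441 to 4.92. The study's methods state that a young male with an open wound and suspected infection was left out of its analysis, and whether it was this mouse is not given in the sources used here. With both males added, limma on log2(FPKM + 0.1) gave 38 of 39 cycle genes above 0 with a median of 0.84, where 69.2% of all genes lay above 0 with a median of 0.16. Over the 8 males that also had counts it gave 32 of 37 with a median of 0.34, where 54.5% of all genes lay above 0 with a median of 0.03.

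Young vehicle females and males, which share substrain and age, were compared to see how the cycle genes differ by sex. Of 30 cycle genes tested 1 was called higher in females and 3 lower, where of 13875 genes in the test 10.5% were called, with 5.63% higher and 4.91% lower. At an unadjusted p under 0.05 there were 2 higher and 7 lower, where 27.6% of all genes passed, 14.2% higher and 13.4% lower. The median log2 fold change of the cycle genes was -0.18, and 11 of 30 lay above 0, against 49.5% of all genes. Ccnd1 was at 46.5, 53.8, 46.8, 16.5 and 48.8 CPM in females against 4.47, 6.86, 3.82 and 10.0 CPM in males. Every female was above every male, and the log2 fold change was 2.73 (SE 0.36, FDR = 0.000557). Its late G1 counterpart went the other way. Ccne1, the cyclin E1 gene, was at 0.378, 0.308, 0.468, 0.115 and 0.343 CPM in females against 2.72, 0.857, 1.96 and 3.03 CPM in males, again without overlap (log2 fold change -2.72, SE 0.41, FDR = 0.0017). The female values of Ccne1 rest on 2 to 9 counts per mouse, and it was too low to test in the comparison of old with young females.

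E2f1 was at 2.14, 1.90, 1.46, 1.78 and 1.23 CPM in young females and at 2.78, 2.69, 4.58 and 3.71 CPM in young males (log2 fold change -1.03, SE 0.23, FDR = 0.0154). Mcm7 was at 12.5, 9.53, 13.4, 12.3 and 12.2 CPM in females and at 14.7, 16.9, 18.6 and 18.6 CPM in males (log2 fold change -0.54, SE 0.12, FDR = 0.0159). Neither gene had overlapping groups. 3 cycle genes lay wholly below the males, where 6.09% of all genes did, and 2 wholly above them, Ccnd1 and Bub1b, where 6.75% did. Bub1b was at 0.363, 0.343, 0.218 and 0.226 CPM in males and did not pass (log2 fold change 0.94, SE 0.33, FDR = 0.0864). Without young vehicle male 4 the call of Mcm7 and that of E2f1 were lost, and 1 gene was called lower in place of 3. Macrophage and Kupffer cell markers were called higher in females for 5 of 6 (sums of 199 to 296 CPM in females and 84.3 to 196 CPM in males), along with 2 of 5 cholangiocyte, 3 of 6 stellate cell and 3 of 6 endothelial markers, while Alas2 of 3 erythroid and Serpina1c of 6 hepatocyte markers were lower. Their part was not tested.

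Ccnd1 was called in the comparisons of 2 groups other than that of HDM201 in males, though the calls between old and young mice were lost in 6 of 9 fits without a mouse in females (edgeR FDR up to 0.121) and in 7 of 8 in males. Its mean was 42.5 CPM ± 14.8 (SD, n = 5) in young vehicle, 68.8 ± 11.5 (n = 4) in old vehicle and 140.3 ± 35.2 (n = 5) in old HDM201 females. In males the means were 6.29 CPM ± 2.80 (n = 4), 19.9 ± 9.57 (n = 4) and 36.1 ± 25.1 (n = 5). The same order held in both sexes, with the male ranges overlapping between neighbours. Ccne1 had the opposite difference between sexes, with means of 0.322 CPM ± 0.130 (n = 5), 0.566 ± 0.178 (n = 4) and 0.535 ± 0.187 (n = 5) in the female groups and 2.14 ± 0.968 (n = 4), 1.92 ± 0.864 (n = 4) and 1.93 ± 1.52 (n = 5) in the male groups.

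Whether the effects differed between the sexes was tested as an interaction, written as the effect in females minus that in males. Old females and old males differed in age by the labels, so sex and the age of the old mice cannot be told apart in either test. For HDM201 no cycle gene of 38 was called by edgeR or by DESeq2, which called 643 genes in all. By edgeR 9 cycle genes had an unadjusted p under 0.05, 2 higher and 7 lower. Of 14974 genes in the test 0.107% were called, 0.0735% higher and 0.0334% lower, and 18.5% had an unadjusted p under 0.05, 8.86% higher and 9.66% lower. The smallest FDR was that of Aurkb, 0.106, with a difference of -2.19 on the log2 scale (SE 0.68). Aurkb was at 0.527, 0.624, 0.166 and 0.422 CPM in old vehicle and 0.157, 0.219, 0.208, 0.267 and 0.282 CPM in treated females, and at 0.573, 0.348, 0.746 and 0.265 CPM in old vehicle and 0.835, 0.749, 0.461, 2.45 and 1.21 CPM in treated males. The difference for Ube2c was -2.62 (SE 0.87, FDR = 0.123) and for Top2a -2.13 (SE 0.78, FDR = 0.152). Of the 18 G2 and mitosis genes tested 17 had a difference below 0, with a median of -1.05, where 49.8% of all genes lay above 0. The male side of this difference rested on old HDM201 male 4, without which the male median of the G2 and mitosis genes was -0.06 in place of 0.58. So for no single cycle gene tested was the HDM201 effect shown to differ between the sexes. For age no cycle gene of 37 was called by either tool, and DESeq2 called 1127 genes in all. By edgeR 3 cycle genes had an unadjusted p under 0.05, 2 higher and 1 lower. Of 14721 genes in the test 3.92% were called, 2.02% higher and 1.9% lower, and 21.5% had an unadjusted p under 0.05, 10.7% higher and 10.8% lower. The smallest FDR was 0.104, for Mcm7.

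Further genes of the pathway were read from lists of 39 S phase, 45 mitosis, 12 RB and DREAM and 5 CDK inhibitor genes. Of the other mitosis genes, 20 of 26 tested lay below 0 with HDM201 in females, with a median of -0.22. Over all genes 50.2% lay above 0, with a median of 0.00. The mice are those of the chosen genes, so the lists are not independent. Kif23, a motor of the central spindle, was called lower (log2 fold change -1.45, SE 0.36, FDR = 0.04), where 2.9% of all genes were. None of 33 S phase, 12 RB and DREAM and 5 CDK inhibitor genes tested was called by edgeR, with 6, 1 and 0 at an unadjusted p under 0.05. Among the last was Cdkn1a, the gene of p21, at 10.5, 22.3, 14.99 and 20.2 CPM in old vehicle and at 52.3, 13.0, 6.15, 18.5 and 4.75 CPM in treated females. The treated females spread over the vehicle range on both sides, and the log2 fold change was 0.12 (SE 0.57, FDR = 0.925). In males Cdkn1a was at 16.001, 2.14, 3.62 and 2.71 CPM in vehicle and at 38.6, 67.8, 12.7, 7.52 and 21.0 CPM in treated mice (log2 fold change 2.26, SE 0.74, FDR = 0.298). Male 4, the mouse with the high cycle genes, had the lowest Cdkn1a of the treated males. No gene of the 4 lists was called with HDM201 in males by edgeR, with 4 S phase, 0 mitosis, 2 RB and DREAM and 1 CDK inhibitor gene at an unadjusted p under 0.05.

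Between old and young vehicle females, 5 of 33 other S phase genes were called higher and 6 lower, and 6 of 25 other mitosis genes higher and 2 lower. With 16.8% of all genes called higher and 15% lower in this comparison, the S phase counts were near the background, and the genes named here are given as values only. Racgap1, which sets the plane of cytokinesis with Kif23, rose by 1.97 on the log2 scale (FDR = 0.00423), Ncapg2, a condensin subunit, by 1.13 (FDR = 0.00465) and Cdc25b, a phosphatase that activates CDK1, by 0.89 (FDR = 0.0062). Of the S phase genes, Blm, a helicase of DNA repair, fell by 1.66 (FDR = 0.0023), Mcm10, a replication initiator, fell by 0.92 (FDR = 0.00589) and Dnmt1, the maintenance DNA methyltransferase, rose by 0.50 (FDR = 0.00421). Among the RB and DREAM components called, those with the smallest FDR fell, Rbl2 by 0.35 (FDR = 0.00512), Lin52 by 0.47 (FDR = 0.00593) and Rbbp4 by 0.32 (FDR = 0.00698). They were picked by FDR alone and do not stand for the list as a whole. Cdkn1a rose with the cycle genes, by 1.68 (SE 0.41, FDR = 0.00853), from 1.07, 4.61, 7.18, 10.9 and 3.38 CPM in young females, with 1 old female within the young range, and Cdkn1c, another CDK inhibitor, rose by 0.44 (FDR = 0.0218). In males old against young, Pola1, the catalytic subunit of DNA polymerase alpha, was the 1 gene of these lists called, at 0.91 on the log2 scale (FDR = 0.0349), and Cdkn1a was not (log2 fold change -0.58, SE 0.59, FDR = 0.613).

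By sex in young mice, where 10.5% of all genes were called, up to 3 called genes of each list with the smallest FDR are named. Nek2, a centrosome kinase, had the largest difference of these, at -3.25 on the log2 scale and so lower in females (FDR = 0.000234). It was followed by Mcm10 at -1.50 (FDR = 0.00105) and Dbf4, the activator of the CDC7 kinase, at -1.23 (FDR = 0.0103). Ccnf at -0.83 (FDR = 0.0043), Spc25, a kinetochore gene, at -0.83 (FDR = 0.0351) and Tfdp2, an E2F partner, at -0.33 (FDR = 0.0402) were also lower in females. Cdkn2c at 1.13 (FDR = 0.00122), Cdkn1c at 0.83 (FDR = 0.0179) and Brca2, a gene of recombination repair, at 0.47 (FDR = 0.0241) were higher in females. In the interaction of sex and age, Rbbp4 was called (difference -0.54, FDR = 0.0135).

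Some counts may hold reads of neighbouring or related genes. Opposite-strand genes overlap Cdk4 (Tspan31), Cdk2 (Pmel), Ccne2 (Ints8), E2f8 (Gm2788), Cdc45 (Ufd1), Mcm7 (Ap4m1 and Cops6), Ccna2 (Exosc9), Plk1 (Gm44985), Cdc20 (Elovl1), Ube2c (Tnnc2), Kif20a (Cdc23) and Nusap1 (Oip5), and without a stated strand setting reads of such pairs cannot be told apart. Named pseudogenes exist for Pcna, Tyms, Ccnb1 and Ccnb2, and values of these genes are uncertain to that extent.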

How the data were processed

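Bulk RNA-seq of polyadenylated liver RNA was analysed for 29 mice, grouped by GEO's labels. The authors aligned reads with STAR to mm10 and deposited raw read counts per gene from HTSeq and FPKM from Cufflinks. The versions and the strand setting are not given in the sources used here. Counts were used for 27 mice and FPKM for 29, with empty FPKM cells read as 0. Of the FPKM values of the chosen genes in the 27 mice 47 were empty, and 14 of these had a count of 0.

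The quasi-likelihood test of edgeR 4.0.16 in R 4.3.3 was run separately for the groups of each comparison. Low genes were removed with filterByExpr (min.count 10, min.total.count 15), libraries were scaled by TMM, and genes were called at a Benjamini-Hochberg FDR under 0.05 over all genes tested. This filter can pass a low gene through the group where it is high, so counts of low genes by direction depend in part on it. DESeq2 1.42.0 on counts and limma 3.58.1 on log2(FPKM + 0.1) (mean FPKM no lower than 0.1) were alternatives, and the pipeline was tested on simulated data. Exon lengths came from GENCODE vM21, which held 55240 of the 55421 gene identifiers.

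The chosen genes and the lists were picked with earlier results of these data known. Values per mouse are given for genes called in any comparison of 2 groups and for Mki67, Top2a, Ccnb1, Cdk1, Ccnd1, Mcm2 and Pcna. From each wider list up to 3 called genes with the smallest FDR are named, and Cdkn1a. Aurka, Aurkb and Plk1 were added after their values were seen. Promoters are considered for up to 5 genes called in the most comparisons.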

Additional observations from a re-analysis of the deposited data

Results flagged for a closer look

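Each group of 4 or 5 mice was tested, gene by gene, for a mouse far from the others, and 14 of 114 such tests held one. The rule gives about 1 in 20 by chance for a single test. The same mice recur over the genes, so the tests are not independent and their number cannot be judged against that rate. The mouse was old HDM201 male 4, on the high side, for 9 genes. These were Ccne1 at 4.64 CPM, E2f1 at 9.17, Mcm2 at 15.3, Mcm7 at 28.2, Pcna at 46.98, Ccnb1 at 1.76, Cdk1 at 5.76, Ube2c at 2.99 and Stmn1 at 14.1 CPM.

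The other 5 were spread over as many mice. Ccnd1 was low in young vehicle female 4, at 16.5 CPM, E2f8 was low in old HDM201 male 3, at 1.73 CPM, and Mcm3 was low in old vehicle female 2, at 4.28 CPM. Ccnb2 was high in old HDM201 female 4, at 0.801 CPM, and Ube2c was high in young vehicle male 4, at 0.498 CPM.

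The mice read from FPKM alone also stood above the others of their groups. The summed FPKM of the 20 G2 and mitosis genes was 195 in old vehicle male 1, against 11.2 to 22.9 in the other old vehicle males. It was 25.0 in young vehicle male 5, against 7.71 to 13.2 in the other young vehicle males.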

How the results depend on the processing

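No call between 2 groups reversed its direction under the alternatives run. Of the genes not called, Mki67, Top2a and Ube2c turned from 0.93, 0.83 and 0.63 to -0.38, -0.38 and -0.68 with HDM201 in males by limma on FPKM with all mice. With HDM201 in females, 0 genes were called higher in place of 1 and 0 lower in place of 2 in a fit of all 6 groups, at an FDR under 0.01 and by limma on FPKM. Between old and young females 9 genes in place of 14 were called higher in the fit of all 6 groups and 6 at an FDR under 0.01. Between old and young males, in place of 1 gene, 3 were called higher by DESeq2, 2 without a filter on low counts, 4 in the fit of all 6 groups, and 0 at an FDR under 0.01 and by limma on FPKM, with all mice or only those with counts. By limma on FPKM with all mice, 7 genes in place of 34 lay above 0 with HDM201 in males, and 38 in place of 22 between old and young males. Between young females and males, 1 gene in place of 3 was called lower at an FDR under 0.01 and by limma on the FPKM of mice with counts. Of the values of single called genes over all alternatives, 257 kept their call and 110 lost it. The fits restricted to mice with counts were chosen after seeing the data.

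When 1 mouse was left out, 1 to 2 genes were called higher and 0 to 2 lower with HDM201 in females. In males with HDM201 16 to 34 genes lay above 0, with 16 without old HDM201 male 4. Between old and young females 5 to 13 genes were called higher, and between old and young males 0 to 2. Between young females and males 1 to 4 genes were called lower and 7 to 12 lay above 0, and for the interaction of sex and age 0 to 1 gene was called higher, the 1 being without young vehicle male 1. The cause of these changes was not tested.

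Replicate numbers did not pair the mice, as deviations of same-numbered mice correlated at -0.21 to 0.21 and in no comparison was every pair above 0.1. With a replicate block 0 genes were called lower in place of 2 with HDM201 in females and 7 higher in place of 14 between old and young females, and the counts in the other comparisons stayed within 1.5 times. Genes with few counts limit the depth of the comparisons, as Ccnb1 and Bub1 could not be tested.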
